A study of Homo sapiens with 18 samples.

Results

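The early transcriptional response to methionase was examined in 6 of the 18 poly-A RNA-seq libraries of the study, chosen by their labels. Libraries of HEK293T cells transfected for 12 h with MethionaseNLS, a methionase with a nuclear localisation signal (replicates 1, 2 and 3), were set against libraries of cells transfected for 12 h with the empty pLEX vector (replicates 1, 2 and 3). Both groups had received the vehicle DMSO, and the cells were labelled wild type. HEK293T is a human embryonic kidney line that is easily transfected. The remaining 12 libraries held the same pair of constructs at 24 h, in DMSO or with 5 µM Vps34-IN1, an inhibitor of the class 3 PI3-kinase, and entered here through the shared estimate of the spread. The 6 DMSO libraries at 24 h were also used to ask whether a difference at 12 h was of another size later. No group received an inactive methionase, so the activity of the enzyme and the presence of a foreign nuclear protein cannot be told apart. Reads from the methionase construct itself were not analysed here, and the labels do not say that replicates came from separate cultures, so the spread behind each p-value is that between these libraries and may be technical.

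Methionase is a microbial enzyme that splits methionine. In human cells methionine is the source of S-adenosylmethionine, the donor for methylation of histones, DNA and RNA, and it is one of the amino acids sensed by the mTORC1 growth pathway. The gene groups described below cover the methionine cycle and methyltransferases, amino acid shortage, class 3 PI3-kinase and autophagy, glucose use, stress and growth.

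The 6 libraries held between 19685333 and 20777258 reads assigned to genes. The 8 markers of the HEK293 line were all detected, with summed levels of 27434 to 28238 normalised reads with methionase and 24505 to 28422 with the empty vector. Markers of leukocytes, hepatocytes, endothelium and mature kidney stayed at or near 0, with no summed level above 14.4 normalised reads (reads divided by a library's size factor), and CD3E, COL1A2 and AQP2 had no read in any of the 6. The 4 fibroblast markers summed to 544 to 567 normalised reads with methionase and 496 to 515 with the empty vector, nearly all from COL1A1 (log2 difference 0.11 ± 0.11, adjusted p = 0.612). Their part in the results was not tested. The first principal component of the 6 libraries, with 41% of the variance, placed methionase between 8.39 and 9.63 and the empty vector between -10.91 and -7.65. The second, with 18.6%, set empty vector replicate 1 apart at 11.7, while the other 5 libraries lay between -6.25 and 3.2. Values without that library are given below beside the glucose and hypoxia genes and the genes of amino acid shortage.

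At 12 h methionase had shifted a small share of the transcriptome, and mostly by little. Of 17755 genes tested with limma at a Benjamini-Hochberg adjusted p below 0.05 (a gene past this threshold is referred to as called), 385 differed, which is 2.17%. Of these, 121 rose (0.681%) and 264 fell (1.49%). Most differences were below 1.5-fold: the median ratio of group means was 1.49 for genes that rose and 0.796 for genes that fell. In all, 59 genes that rose and 19 that fell differed by at least 1.5-fold, and 27 and 4 by at least 2-fold. Log2 differences are methionase minus empty vector on the variance-stabilised scale. On it, changes of genes with low counts look smaller than they are in reads.

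In 384 of the 385 called genes the 3 methionase libraries did not overlap the 3 empty vector libraries. The exception was NRN1, whose values were 1685, 1564 and 1955 normalised reads with methionase and 3035, 2226 and 1909 with the empty vector. Over all genes tested, 11.8% had every methionase library above and 17.7% every methionase library below the empty vector. The genes that fell were mostly abundant: 139 of the 264 had a mean between 1000 and 10000 normalised reads, and their median level was 1102, against 209.4 for the genes that rose. The whole distribution leaned the same way, with a median log2 difference of 0.05 among the 4647 genes tested with a mean between 10 and 100 normalised reads and of -0.07 among the 4301 between 1000 and 10000. After quantile normalization these medians were near 0 (-0.00 in both), and 90 genes were called higher and 95 lower.

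**Figure D1:**
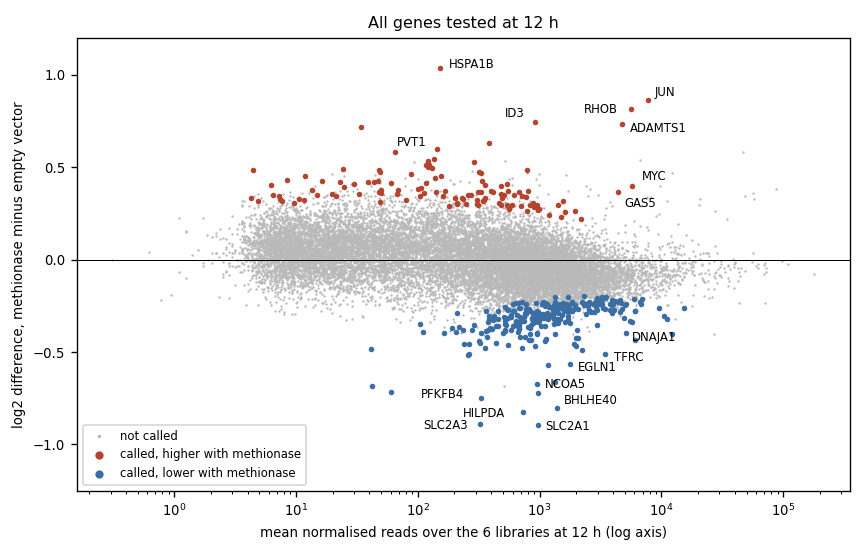
Each point is 1 of the 17755 genes tested, placed by its mean normalised reads over the 6 libraries at 12 h (horizontal, log axis) and by its log2 difference, methionase minus empty vector (vertical). The 121 genes that rose are red, with HSPA1B highest, and the 264 that fell are blue, with SLC2A1 and SLC2A3 lowest. Grey genes were not called.

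Both called glucose transporters and several genes of the hypoxia program were among the 12 largest decreases. The hypoxia program is run by HIF transcription factors, whose alpha subunits are hydroxylated by EGLN enzymes when oxygen is plentiful and then destroyed. When they are not, they raise glucose uptake, glycolysis and BNIP3-type mitophagy receptors. SLC2A1, which encodes the glucose transporter GLUT1, had 616, 659 and 684 normalised reads with methionase, against 1575, 1168 and 1153 with the empty vector. Every methionase library lay far below every empty vector library, a ratio of means of 0.503 and a log2 difference of -0.90 ± 0.09 (SE, adjusted p = 1.18e-05). SLC2A3, the neuronal-type glucose transporter GLUT3, had 232, 175 and 190 normalised reads with methionase and 634, 393 and 320 with the empty vector. Its log2 difference was -0.89 ± 0.15 (adjusted p = 0.003118). They were the only 2 of the 8 tested glucose transporters to be called, and the median of the 8 was -0.11, beside -0.01 over all genes.

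In glycolysis 4 genes fell. PFKFB4 makes and removes fructose 2,6-bisphosphate, the activator of phosphofructokinase. It had 239, 213 and 227 normalised reads with methionase and 539, 402 and 370.2 with the empty vector, with no overlap between the groups (log2 difference -0.75 ± 0.10, adjusted p = 4.45e-04). Its relative PFKFB3 fell as well (-0.34 ± 0.07, adjusted p = 0.01464), as did the phosphoglycerate mutase PGAM1 (-0.34 ± 0.08, adjusted p = 0.03032) and the lactate transporter SLC16A1 (-0.28 ± 0.06, adjusted p = 0.01783). Lactate dehydrogenase A and hexokinase 2 did not pass the test: LDHA had 22490, 22393 and 25051 normalised reads with methionase and 37201, 30842 and 25383 with the empty vector (-0.40 ± 0.13, adjusted p = 0.08836), and HK2 gave -0.37 ± 0.11 (adjusted p = 0.082). Of the 22 tested members of the glycolysis list, 4 fell, none rose and 20 lay below 0, with a median of -0.20.

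Among the oxygen sensors, EGLN1, the main prolyl hydroxylase of HIF alpha subunits and itself a HIF target, had 1408, 1402 and 1402 normalised reads with methionase and 2383, 2110 and 1896 with the empty vector. The methionase libraries were almost identical to each other and all below the empty vector (-0.57 ± 0.07, adjusted p = 1.86e-04). The transcripts of the HIF alpha subunits themselves were not called. HIF1A had 1458, 1429 and 1460 normalised reads with methionase and 1464, 1608 and 1537 with the empty vector (-0.08 ± 0.06, adjusted p = 0.5062), and EPAS1 had 833, 793 and 769 with methionase and 785, 771 and 767 with the empty vector (0.04 ± 0.08, adjusted p = 0.8357). EGLN1 was the only called gene of the 8 tested in this list.

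Of 25 tested hypoxia targets, 9 fell and none rose, and 23 lay below 0 with a median of -0.27. BHLHE40, a transcriptional repressor of the circadian and hypoxia responses, had 1014, 934 and 981 normalised reads with methionase and 2209, 1680 and 1474 with the empty vector (-0.80 ± 0.13, adjusted p = 0.002122). Its paralogue BHLHE41 also fell (-0.46 ± 0.09, adjusted p = 0.0127). The mitophagy receptors fell together: BNIP3 had 1053, 899 and 1052 normalised reads with methionase and 2120, 1480 and 1370 with the empty vector (-0.66 ± 0.13, adjusted p = 0.01219), and BNIP3L had 947, 869 and 953 with methionase and 1713, 1331 and 1228 with the empty vector (-0.57 ± 0.09, adjusted p = 0.002608). In none of these genes did the groups overlap. EOLA1, outside the lists, was also among the 12 largest decreases, with 743, 636 and 714 normalised reads with methionase and 1608, 1164 and 831 with the empty vector (-0.68 ± 0.15, adjusted p = 0.01783).

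The other called hypoxia targets were PDK1, the kinase that closes the pyruvate dehydrogenase gate into mitochondria (-0.46 ± 0.09, adjusted p = 0.009468), INSIG2, a brake on cholesterol synthesis (-0.45 ± 0.09, adjusted p = 0.008556), the collagen lysyl hydroxylase PLOD2 (-0.43 ± 0.08, adjusted p = 0.008556), the zinc finger gene ZNF395 (-0.44 ± 0.08, adjusted p = 0.004842) and the histone H3 lysine 9 demethylase KDM3A (-0.30 ± 0.07, adjusted p = 0.01624). VEGFA, the best known HIF target, had 1221, 1158 and 1254 normalised reads with methionase and 1398, 1374 and 1106 with the empty vector, and was not called (-0.08 ± 0.08, adjusted p = 0.6265). CA9 was at or below 2.79 normalised reads in every library and was not tested. Genes outside the lists that are known to rise in hypoxia, picked after their values were seen, fell too: the lipid droplet protein HILPDA (-0.82 ± 0.12), the miR-210 host transcript MIR210HG (-0.72 ± 0.14), the secreted factor STC1 (-0.69 ± 0.14), the fucosyltransferase FUT11 (-0.52 ± 0.08), the glycogen branching enzyme GBE1 (-0.48 ± 0.09) and the adenylate kinase AK4 (-0.46 ± 0.07).

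Over the glucose transporter, glycolysis, oxygen sensing and hypoxia lists together, 16 of 63 tested genes fell and none rose, which is 25.4% beside 1.49% lower among all genes, and 55 of the 63 lay below 0. In bulk RNA, fewer cells that express a gene and less of its RNA per cell cannot be told apart. Empty vector replicate 1 had the highest value of its group in 15 of the 16 called genes. Among all 264 genes that fell, replicate 1 was the highest of its group in 62 and replicate 3 in 139. Without empty vector replicate 1, 11 of the 63 were still lower, and the median of the 63 was -0.13 instead of -0.20. BNIP3 (adjusted p = 0.06133), KDM3A (0.06694), PFKFB3 (0.0738) and PGAM1 (0.1165) were among those no longer called. Without the same library BHLHE41 (log2 difference -0.39, adjusted p = 0.05796), MIR210HG (-0.59, adjusted p = 0.05492), STC1 (-0.44, adjusted p = 0.05492), EOLA1 (-0.45, adjusted p = 0.08227) and NRN1 (-0.24, adjusted p = 0.1239) were not called either. The level of the 63 genes, as the median of their deviations from their means over the 12 DMSO libraries, was -0.12, -0.13 and -0.13 log2 in the methionase libraries at 12 h, against 0.21, 0.04 and -0.01 with the empty vector. At 24 h it was -0.04, -0.11 and -0.18 with methionase and 0.17, 0.27 and 0.12 with the empty vector. The methionase libraries lay below the empty vector at both times. Empty vector replicate 1 at 12 h stood within the range of the empty vector at 24 h. Empty vector replicates 2 and 3 at 12 h lay below that range. Libraries of another time cannot show which empty vector libraries at 12 h were typical.

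**Figure D2:**
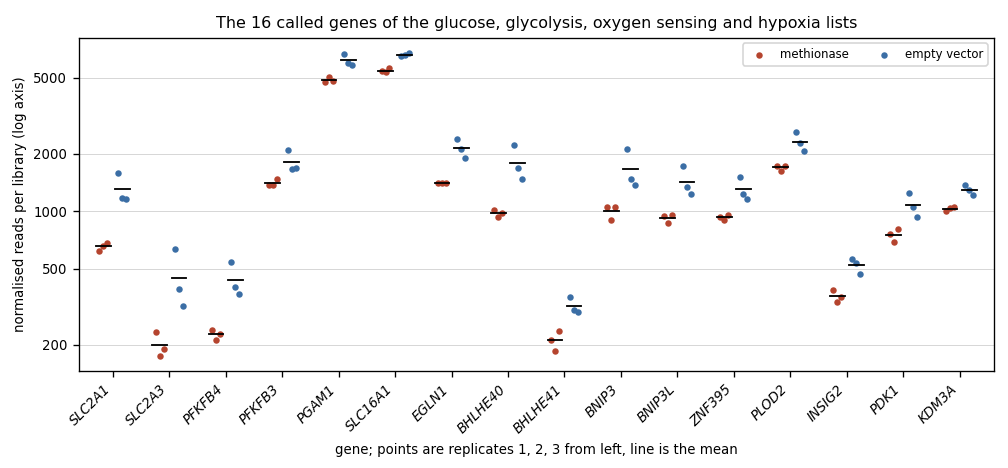
Normalised reads per library (log axis) of the 16 called genes of the glucose transporter, glycolysis, oxygen sensing and hypoxia lists, with methionase (red) left of the empty vector (blue); points are replicates 1, 2 and 3 from left and black lines are means. Methionase lies below the empty vector in each gene, and empty vector replicate 1 is the highest point in 15 of the 16.

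The promoters of the 4 called members of the hypoxia target list with the lowest adjusted p among those with a RefSeq window used here are shown because HIF binds the short core ACGTG or GCGTG. Each is the RefSeq window from 250 bases before to 50 bases after the gene start on GRCh38.p14, written 5′ to 3′ on the gene's strand, with either core in capitals wherever it occurs on either strand. The windows lie at chr3:4979187-4979486 on the plus strand for BHLHE40, chr3:146161135-146161434 on the minus strand for PLOD2, chr2:118088221-118088520 on the plus strand for INSIG2 and chr2:172555123-172555422 on the plus strand for PDK1.
BHLHE40: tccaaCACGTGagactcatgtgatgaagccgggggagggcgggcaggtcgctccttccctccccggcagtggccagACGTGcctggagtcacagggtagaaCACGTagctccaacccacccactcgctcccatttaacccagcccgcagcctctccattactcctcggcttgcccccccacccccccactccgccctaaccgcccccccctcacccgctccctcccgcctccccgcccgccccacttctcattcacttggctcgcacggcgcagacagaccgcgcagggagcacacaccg
PLOD2: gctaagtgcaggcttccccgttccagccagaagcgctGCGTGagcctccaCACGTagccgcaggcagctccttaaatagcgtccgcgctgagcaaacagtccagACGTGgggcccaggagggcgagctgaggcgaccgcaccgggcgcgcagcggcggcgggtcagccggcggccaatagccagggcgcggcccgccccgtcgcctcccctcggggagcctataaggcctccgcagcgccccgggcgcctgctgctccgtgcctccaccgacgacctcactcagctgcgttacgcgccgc
INSIG2: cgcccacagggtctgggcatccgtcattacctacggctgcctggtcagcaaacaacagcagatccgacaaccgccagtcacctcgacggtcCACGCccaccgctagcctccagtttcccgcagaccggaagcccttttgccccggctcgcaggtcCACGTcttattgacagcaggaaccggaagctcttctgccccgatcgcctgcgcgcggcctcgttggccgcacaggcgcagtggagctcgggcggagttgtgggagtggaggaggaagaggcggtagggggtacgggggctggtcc
PDK1: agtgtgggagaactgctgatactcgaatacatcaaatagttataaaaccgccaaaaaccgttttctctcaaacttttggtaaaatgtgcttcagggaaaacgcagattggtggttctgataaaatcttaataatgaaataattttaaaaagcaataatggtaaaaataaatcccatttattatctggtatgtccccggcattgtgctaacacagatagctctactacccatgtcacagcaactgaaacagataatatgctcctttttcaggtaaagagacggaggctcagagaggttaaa
BHLHE40 held 4 matches, of which the first pair overlaps in the palindrome CACGTG, the E-box that BHLHE40 protein itself binds. PLOD2 held 3 and INSIG2 held 2, while the PDK1 window held none. Among 213 promoters of genes that fell, 157 (73.7%) held ACGTG or GCGTG, beside 40 of 84 promoters of genes that rose (47.6%) and 7898 of 12911 promoters of all genes tested (61.2%). For ACGTG alone the shares were 32.4% in genes that fell, 22.6% in genes that rose and 25.6% in all. Of the called genes of the 4 lists with a window, 10 of 12 held either core, and of their members that were not called 28 of 40 (70%). The matches describe the letters of these windows only.

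The largest increase by log2 difference among genes with a symbol was that of HSPA1B. HSPA1B, an inducible HSP70 chaperone, had 184, 220.1 and 284 normalised reads with methionase and 70.7, 64.8 and 92.8 with the empty vector. All methionase libraries lay above all empty vector libraries, with a ratio of means of 3.01 and a log2 difference of 1.03 ± 0.21 (adjusted p = 0.01145). Its own value is uncertain, since its near-identical neighbour HSPA1A had at most 0.962 normalised reads in any library and reads that match both genes may not have been counted. No other gene of the 27 tested cytosolic heat shock proteins rose. DNAJA1, an HSP40 co-chaperone, had 4467, 4111 and 4557 normalised reads with methionase and 5360, 5912 and 6101 with the empty vector and fell by 0.40 ± 0.07 (adjusted p = 0.002972). The median of the list was -0.04.

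JUN, a component of AP-1, which stress and growth factors induce, had 8775, 12570 and 8685 normalised reads with methionase and 6795, 5149 and 4439 with the empty vector (0.86 ± 0.14, adjusted p = 0.002608). RHOB, a stress-induced small GTPase, had 6399, 8839 and 6384 with methionase and 4617, 3597 and 3901 with the empty vector (0.81 ± 0.13, adjusted p = 0.002608). ID3, an inhibitor of helix-loop-helix transcription factors, had 974, 1493 and 1063 with methionase and 717, 638 and 626 with the empty vector (0.74 ± 0.15, adjusted p = 0.01249). Methionase replicate 2 was the highest library in all of these, and also in the secreted protease gene ADAMTS1, with 5431, 6899 and 5473 normalised reads with methionase and 4102, 3377 and 3125 with the empty vector (0.73 ± 0.16, adjusted p = 0.01783). Without methionase replicate 2, 2 genes over the whole transcriptome were called higher, and of JUN, RHOB, ID3 and ADAMTS1 only JUN was still called.

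The promoters of HSPA1B and JUN, the genes of the heat shock and immediate early lists with the largest increases, are shown for the repeat GAANNTTC, part of the element bound by heat shock factors. The RefSeq windows, of the same extent and build, lie at chr6:31827488-31827787 on the plus strand for HSPA1B and chr1:58783998-58784297 on the minus strand for JUN, and capitals mark that repeat.
HSPA1B: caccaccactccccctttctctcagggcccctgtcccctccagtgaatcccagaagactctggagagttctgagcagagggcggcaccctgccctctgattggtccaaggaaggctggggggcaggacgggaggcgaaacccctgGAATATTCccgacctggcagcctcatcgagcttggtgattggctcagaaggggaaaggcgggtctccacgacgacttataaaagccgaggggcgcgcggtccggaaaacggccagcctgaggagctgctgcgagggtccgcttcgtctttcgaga
JUN: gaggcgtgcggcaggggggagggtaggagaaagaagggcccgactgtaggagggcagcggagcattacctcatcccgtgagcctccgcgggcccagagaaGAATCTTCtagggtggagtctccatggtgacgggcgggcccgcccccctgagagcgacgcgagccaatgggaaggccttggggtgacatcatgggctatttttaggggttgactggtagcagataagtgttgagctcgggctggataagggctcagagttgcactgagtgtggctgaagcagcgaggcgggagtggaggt
Each held 1 match, and neither held the AP-1 motif TGANTCA or the CRE motif TGACGTCA in that exact form. Variants of these motifs were not counted, and the JUN window holds tgacatca, which differs from TGACGTCA by 1 base. The repeat was found in 9 of 84 promoters of genes that rose (10.7%), with HSPA1B and JUN among the 9. It was found in 10 of 213 promoters of genes that fell (4.69%) and in 4.83% of all. TGANTCA was held by 7 promoters of genes that rose (8.33%), 6 of genes that fell (2.82%) and 4.71% of all. TGACGTCA was held by 4 promoters of genes that rose (4.76%), 2 of genes that fell (0.939%) and 3.11% of all. The ATF4 and CEBP composite motif TGATGNAA was held by 3 promoters of genes that rose (3.57%), 3 of genes that fell (1.41%) and 1.85% of all. The E2F motifs TTTCCCGC or TTTGGCGC were held by 2 promoters of genes that rose (2.38%), 12 of genes that fell (5.63%) and 3.45% of all. These counts are small.

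Other immediate early genes were not called. FOS, the usual partner of JUN, had 42.7, 67.4 and 40.4 normalised reads with methionase and 144, 56.4 and 49.2 with the empty vector (-0.32 ± 0.22, adjusted p = 0.4624). ATF3 had 1747, 2179 and 1726 with methionase and 2019, 1241 and 953 with the empty vector (0.46 ± 0.22, adjusted p = 0.2864). JUN and MYC were the 2 called genes of the 23 tested in the AP-1 and immediate early list, whose median was 0.05. Of 16 tested YAP and SRF targets RHOB alone was called, and of 9 MAP kinase phosphatases none, with a median of 0.17.

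MYC, the growth-promoting transcription factor, had 6015, 7213 and 6481 normalised reads with methionase and 5295, 4805 and 4796 with the empty vector (0.40 ± 0.07, adjusted p = 0.005186). Its non-coding neighbour PVT1 had 196, 196 and 171 with methionase and 101, 101 and 99.3 with the empty vector, which were close to each other within each group (0.60 ± 0.09, adjusted p = 0.001815). MAX, the partner that MYC needs to bind DNA, fell by 0.24 ± 0.06 (adjusted p = 0.04707). Of 25 tested ribosome biogenesis genes and MYC targets, only UBTF, a factor for ribosomal RNA transcription, was called, and it fell (-0.23 ± 0.05, adjusted p = 0.02908). None of 78 cytosolic ribosomal protein genes was called, with a median of -0.02.

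Other large increases included AMH, anti-Müllerian hormone, with 456, 517 and 470.3 normalised reads with methionase and 211, 332 and 320.1 with the empty vector (0.63 ± 0.16, adjusted p = 0.03246). The embryonic muscle myosin MYH3 (0.58 ± 0.11, adjusted p = 0.008975), the ciliary dynein component DNAI4 (0.55 ± 0.11, adjusted p = 0.01128), the Notch pathway repressor HES7 (0.53 ± 0.13, adjusted p = 0.02731), DEPP1, a FOXO-induced autophagy regulator (0.53 ± 0.10, adjusted p = 0.006984), and the antisense transcript CCDC183-AS1 (0.51 ± 0.10, adjusted p = 0.01076) completed the 12 largest by log2 difference. Clone-type names such as LOC or LINC were left out of that ranking. By ratio of means the order differs: AMH had a ratio of 1.67, while 27 genes that rose reached 2-fold. Non-coding RNAs made up 16 of the 121 genes that rose and 1 of the 264 that fell, as long non-coding RNAs in RefSeq (13.2% and 0.379%, beside 14.7% of all genes tested). Their share of reads was 1.07%, 1.02% and 1.05% with methionase and 0.921%, 0.989% and 0.946% with the empty vector (exact permutation p = 0.1, the smallest possible). GAS5, a snoRNA host that accumulates when translation slows, had 4781, 4834 and 5287 normalised reads with methionase and 3746, 3841 and 3911 with the empty vector (0.37 ± 0.10, adjusted p = 0.04159). SNHG17, another snoRNA host, rose as well (0.36 ± 0.10, adjusted p = 0.04417).

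**Figure D3:**
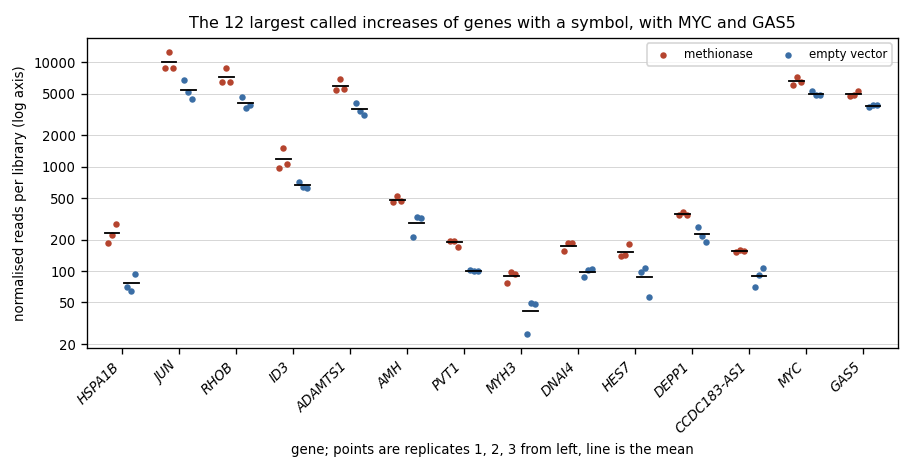
Normalised reads per library (log axis) of the 12 largest called increases by log2 difference among genes with a symbol, with MYC and GAS5. Clone-type names were left out. Methionase (red) is left of the empty vector (blue), points are replicates 1, 2 and 3 from left and black lines are means. No groups overlap, and methionase replicate 2 is the highest point in 10 of the 14 genes, all but HSPA1B, PVT1, HES7 and GAS5.

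No gene of the methionine cycle was called at 12 h. MAT2A, which makes S-adenosylmethionine and whose transcript is stabilised when that product runs short, had 4079, 3471 and 4170 normalised reads with methionase and 3759, 5199 and 5203 with the empty vector. The groups overlapped, and the log2 difference of -0.26 ± 0.17 was not called (adjusted p = 0.4606). The 10 tested genes of the cycle had a median of -0.11. Of 16 polyamine and methionine salvage genes 1 was called, AMD1, the decarboxylase that diverts S-adenosylmethionine to polyamines (-0.27 ± 0.07, adjusted p = 0.02972).

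Amino acid shortage is usually read from ATF4, the factor translated when the integrated stress response is on, and its targets. ATF4 had 22896, 22814 and 22953 normalised reads with methionase and 28170, 26582 and 22339 with the empty vector (-0.16 ± 0.09, adjusted p = 0.3346). The asparagine synthetase ASNS (0.12 ± 0.14, adjusted p = 0.7024), the glutathione-degrading CHAC1 (0.25 ± 0.20, adjusted p = 0.5579) and DDIT3, the death-promoting factor CHOP (0.41 ± 0.20, adjusted p = 0.2841), were not called. DDIT3 had 388, 402 and 405 normalised reads with methionase and 432, 271 and 181 with the empty vector, where replicate 1 exceeded every methionase library. Without empty vector replicate 1 none of these 4 genes was called either. There DDIT3 gave 0.665 (adjusted p = 0.07889), CHAC1 0.484 (adjusted p = 0.229), ASNS 0.148 (adjusted p = 0.7106) and ATF4 -0.090 (adjusted p = 0.6808). None of 22 tested ATF4 targets and none of 17 amino acid transporters was called, with medians of -0.01 and -0.07. Of 25 genes of the unfolded protein response 1 fell, the ER degradation factor DERL1 (-0.26 ± 0.06, adjusted p = 0.02972).

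PIK3C3, the catalytic lipid kinase of class 3 PI3-kinase, had 595, 596 and 566 normalised reads with methionase and 673, 734 and 706 with the empty vector, with no overlap (-0.24 ± 0.06, adjusted p = 0.04355). Its regulatory subunit PIK3R4 had 1052, 1083 and 1055 with methionase and 1061, 1151 and 1176 with the empty vector and was not called (-0.08 ± 0.06, adjusted p = 0.4903). The call of PIK3C3 was lost when any 1 of the 6 libraries was left out. PIK3C3 was the only called gene among 8 of its complexes, and ATG13, a scaffold of the autophagy-starting kinase, the only one among 33 core autophagy genes (-0.28 ± 0.06, adjusted p = 0.01324). PPARA, the fatty acid sensor of the fasting response, was not called (0.06 ± 0.08, adjusted p = 0.7597), nor was any of 20 tested genes of the fasting list.

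In lysosomal amino acid sensing 2 genes fell. LAMTOR3, a subunit of the Ragulator scaffold that holds mTORC1 at the lysosome, had 646, 724 and 685 normalised reads with methionase and 904, 974 and 989 with the empty vector (-0.44 ± 0.07, adjusted p = 0.001684). RRAGA, one of the Rag GTPases that Ragulator carries, fell by 0.28 ± 0.06 (adjusted p = 0.0217). They were the 2 called genes of the 29 tested for mTORC1 sensing and TFEB. Of 21 subunits of the V-ATPase, the proton pump of lysosomes, 4 fell and 20 lay below 0, with a median of -0.15: ATP6V0D1 (-0.38 ± 0.09), ATP6V0E1 (-0.31 ± 0.07), ATP6V1C1 (-0.28 ± 0.06) and ATP6V1D (-0.25 ± 0.06). None of these 4 was called after quantile normalization, where the adjusted p ran from 0.06027 for ATP6V0E1 to 0.1504 for ATP6V1D and the median of the 21 was -0.10. Over all genes 9129 of 17755 (51.4%) lay below 0, and the median was -0.07 among genes with 1000 to 10000 normalised reads. None of 34 lysosomal hydrolases and membrane proteins was called.

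Genes of DNA replication leaned lower. UNG, which removes uracil from DNA, had 2556, 2599 and 2674 normalised reads with methionase and 3349, 3370 and 3342 with the empty vector, replicates that hardly differed within a group (-0.35 ± 0.06, adjusted p = 0.007518). PCNA, the sliding clamp of DNA polymerases, had 5044, 4914 and 5084 with methionase and 6182, 6614 and 6280 with the empty vector (-0.34 ± 0.06, adjusted p = 0.006984). TYMS, which makes thymidylate (-0.30 ± 0.07), POLA2 of the primase complex (-0.25 ± 0.06), RPA2, which coats single-stranded DNA (-0.24 ± 0.06), and the helicase subunit MCM5 (-0.23 ± 0.05) fell as well. Of 52 tested G1/S and replication genes 6 fell, none rose and 51 lay below 0 (median -0.12). In 34 of the 52 every methionase library was below every empty vector library. Over all genes tested 1.49% fell, 51.4% lay below 0, and in 17.7% every methionase library was below. After quantile normalization only UNG and PCNA of the 6 were called, 38 of the 52 lay below 0, and the median of the 52 was -0.05. Over all genes 8939 of 17755 then lay below 0. None of 29 G2/M genes was called, though 26 lay below 0 (median -0.11). After quantile normalization 20 of the 29 lay below 0, with a median of -0.03.

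Chromatin genes gave few calls. SETD1B, a histone H3 lysine 4 methyltransferase, had 562, 486 and 595 normalised reads with methionase and 612, 686 and 752.5 with the empty vector and was the 1 called gene of 32 histone lysine methyltransferases (-0.28 ± 0.08, adjusted p = 0.04566). KDM3A was the 1 called of 21 histone demethylases. No gene was called among 14 of DNA methylation, 10 arginine methyltransferases, 23 RNA methyltransferases or 23 chromatin remodellers. None of 34 replication-dependent histone genes was called, with a median of 0.01. Poly-A selection captures little of these messages, whose share of reads was 0.0146%, 0.0156% and 0.0142% with methionase and 0.0139%, 0.0140% and 0.0139% with the empty vector.

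The tested mitochondrial rRNAs and mRNAs had positive differences, but the libraries spread widely. RNR2, the large mitochondrial rRNA, had 56097, 49279 and 61923 normalised reads with methionase and 32070, 46679 and 34003 with the empty vector (0.58 ± 0.20, adjusted p = 0.1151). The 2 mitochondrial rRNAs took 0.358%, 0.324% and 0.383% of reads with methionase and 0.206%, 0.292% and 0.223% with the empty vector. An exact two-sided permutation test of the shares gave p = 0.1, the smallest that 3 against 3 libraries allow. For mitochondrial mRNAs the shares were 2.36%, 1.69% and 2.90% with methionase and 1.21%, 2.41% and 1.84% with the empty vector, and the groups overlapped (exact permutation p = 0.5). The methionase libraries had reads on 25710, 25468 and 25830 genes, and the empty vector libraries on 24772, 25100 and 24991 (exact permutation p = 0.1).

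In the remaining lists calls were few. Cholesterol synthesis had CYP51A1, the lanosterol demethylase (-0.27 ± 0.07), the proteasome PSMC2, an ATPase of its cap (-0.23 ± 0.06), and the NF-kB list its DNA-binding subunit NFKB1 (-0.30 ± 0.07). In the serine, asparagine and folate list the called gene was TYMS, already counted with replication. SFPQ, a paraspeckle protein, fell by 0.31 ± 0.07 in the list in which GAS5 and SNHG17 rose. TXNIP, a brake on glucose uptake that follows intracellular glucose, had 479, 257 and 387 normalised reads with methionase and 740, 633 and 541 with the empty vector, and its log2 difference of -0.68 ± 0.21 was not called (adjusted p = 0.09038). In 41 of the 49 lists the median lay below 0.

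**Figure D4:**
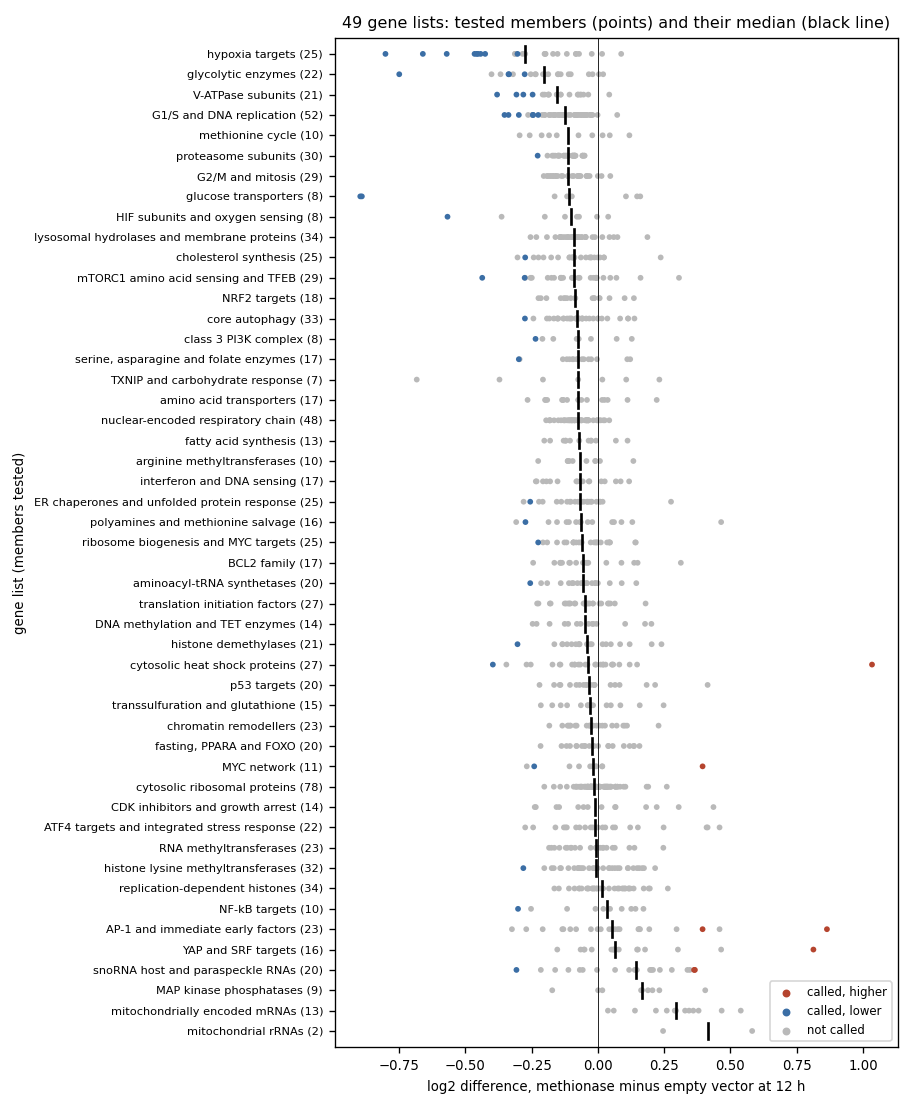
Each row is 1 of 49 gene lists, ordered by its median, with the number of members tested in brackets; points are the members' log2 differences, methionase minus empty vector at 12 h, and black lines the medians. Hypoxia targets are lowest at -0.27 and glycolysis next at -0.20, while JUN, MYC, RHOB, HSPA1B, GAS5 and SNHG17 are the red points called higher.

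Most genes called at 12 h were displaced in the same direction at 24 h, when 6955 of the 17755 genes were called (39.2%), 3210 higher (18.1%) and 3745 lower (21.1%). Of the 121 genes that had risen at 12 h, 94 were also called higher at 24 h (77.7%), and of the 264 that had fallen, 239 were called lower (90.5%). The libraries compared at 24 h were other than those at 12 h. The interaction of methionase with time, which tests whether the difference was of another size at 24 h, was called for 2071 genes (11.7%), of which 99 had been called at 12 h (25.7% of the 385). Of these 99, 23 genes that had risen and 66 that had fallen differed by more at 24 h, and for 10 the difference was smaller at 24 h or of the other sign.

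Several stress genes had larger differences at 24 h. The log2 difference of HSPA1B was 1.03 at 12 h and 2.66 at 24 h (interaction 1.63, adjusted p = 7.06e-04), that of JUN 0.86 and 2.17 (1.30, adjusted p = 1.46e-04) and that of RHOB 0.81 and 2.35 (1.53, adjusted p = 1.30e-05). BRD2, a reader of acetylated histones, had 589, 609 and 542 normalised reads with methionase and 439, 434 and 439 with the empty vector at 12 h (0.35 ± 0.08, adjusted p = 0.02908). At 24 h its difference was 2.15 (interaction 1.80, adjusted p = 8.46e-10). NCOA5, a nuclear receptor co-regulator, fell by 0.72 ± 0.09 at 12 h, with 746, 649 and 734 normalised reads with methionase and 1107, 1265 and 1299 with the empty vector, and gave -1.58 at 24 h (interaction -0.86, adjusted p = 7.32e-05).

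For several hypoxia genes the interaction was not called. EGLN1 had a log2 difference of -0.57 at 12 h and -0.77 at 24 h (interaction adjusted p = 0.1954), BHLHE40 one of -0.80 and -0.62 (adjusted p = 0.56), BNIP3L one of -0.57 and -0.58 (adjusted p = 0.9856) and HILPDA one of -0.82 and -0.74 (adjusted p = 0.7986). An interaction that was not called does not show that the sizes were equal. For SLC2A1 the interaction was -0.25 ± 0.13 (adjusted p = 0.2337), and PFKFB4 had a larger difference at 24 h (-0.44, adjusted p = 0.04626). MYC rose at 12 h and was not called at 24 h (0.08 ± 0.07, adjusted p = 0.3912), and its interaction of -0.32 was called (adjusted p = 0.03622). Also smaller at 24 h was KLF15, a glucocorticoid- and fasting-induced factor (0.30 at 12 h and -0.19 at 24 h, interaction adjusted p = 0.005156). Called in opposite directions at the 2 times were PNRC1, a nuclear receptor co-regulator (-0.36 at 12 h and 0.31 at 24 h), and ARL6IP1, an ER-shaping protein (-0.23 and 0.15).

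**Figure D5:**
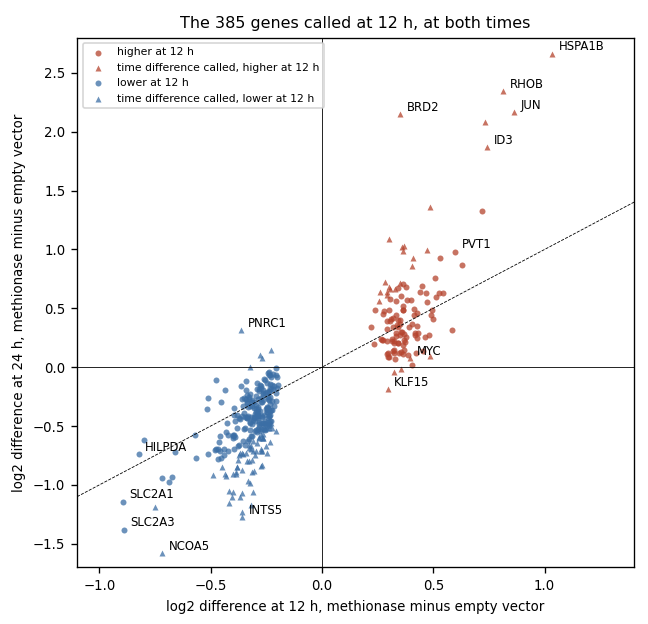
Each point is 1 of the 385 genes called at 12 h, placed by its log2 difference, methionase minus empty vector, at 12 h (horizontal) and at 24 h (vertical); triangles are the 99 genes whose interaction with time was called, and the dashed line marks equal differences. HSPA1B, RHOB, JUN and BRD2 lie above the line, INTS5 and NCOA5 below it, and MYC near 0 at 24 h.

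How many genes were called at 12 h rested on the fit and on every library. With only these 6 libraries in the fit, 1561 genes were called (8.79%), 485 higher and 1076 lower, among them all 385. Leaving out 1 library at a time gave between 18 and 238 called genes. A core of 18 genes was called under every alternative tried: SLC2A1, PFKFB4, EGLN1, BHLHE40, BNIP3L, HILPDA, FUT11, AK4, LAMTOR3, NCOA5, RBM12, MFAP3, FASTKD5, SMIM10L1, ZBED10P and TFRC were lower, and JUN and PVT1 higher. These 18 were also the only genes called without methionase replicate 2, so each of the other called genes lost its call there. Among the genes described above, PGAM1, KDM3A, SLC16A1, AMD1, DERL1, ATG13, PIK3C3, RRAGA, SETD1B, MAX, UBTF, CYP51A1, PSMC2, SFPQ, SNHG17, HES7, AMH, KLF15, PNRC1, ARL6IP1 and NRN1 were also not called after quantile normalization. TFRC, the transferrin receptor that brings iron into cells, had 2797, 2861 and 2869 normalised reads with methionase and 4217, 3812 and 4259 with the empty vector (-0.51 ± 0.07, adjusted p = 6.85e-04). RBM12, an RNA-binding protein, had 1975, 1722 and 1814 with methionase and 2401, 2628 and 2812 with the empty vector (-0.49 ± 0.07, adjusted p = 4.45e-04).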

How the data were processed

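Poly-A libraries were made with dUTP second strands and read on a DNBSEQ-G400, per the labels' protocols, and all carry 1 batch label. STAR 2.7.10b, featureCounts, DESeq2, limma and hg38 were used, per the submitters' processing notes, which give no roles. The annotation and the strand setting of the counting are not given in the sources used here. Overlapping and antisense genes are uncertain for that reason. Variance-stabilised log2 values were deposited by the authors, and the lowest is 5.45. Undoing it gave read counts, and 100% of values lay within 0.01 of a whole read. Of the 37097 lines, 1 names no gene (at most 0.0022% of reads) and was left out. In the 6 libraries at 12 h size factors ranged from 1.04 to 1.08. The smallest chi-square per gene between replicates at 12 h was 4.14, so none was a copy of another.

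Genes with a mean at least 0.5 above the lowest value were tested (17755) with limma 3.58.1 in R 4.3.3, 1 mean per group over 18 libraries and a variance trend, at an adjusted p below 0.05, two-sided. The procedure was tested on simulated data. The comparison, the lists and the rule for named genes were chosen with earlier results of these data known. The rule named the 12 largest increases and decreases by log2 difference without overlap, clone-type names such as LOC or LINC left out. It also named up to 4 called members of each list, 15 followed genes and the strongest interactions. The histone list was corrected after it was written. Values of a few genes that the rule picked are not reported here. Other genes were named after their values were seen. RefSeq promoters matched 12911 of the tested genes.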

Additional observations from a re-analysis of the deposited data

Results flagged for a closer look

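For 27 named genes the difference between methionase and empty vector was of another size at 24 h than at 12 h (limma interaction, adjusted p below 0.05 over all genes). Values are the log2 difference at 24 h minus that at 12 h. Positive values were found for FOS (2.71, adjusted p = 4.42e-06), BRD2 (1.80), HSPA1B (1.63), RHOB (1.53), TXNIP (1.38), ADAMTS1 (1.35), JUN (1.30), ID3 (1.13), KRTAP19-1 (0.88), MHENCR (0.79) and GAS5 (0.62). FOS and TXNIP were not called at 12 h, where they gave -0.32 and -0.68, and were called higher at 24 h with 2.39 and 0.70.

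Negative values were found for CHAC1 (-2.26, adjusted p = 1.76e-05), INTS5 (-0.91), HPS6 (-0.87), NCOA5 (-0.86), MED17 (-0.75), VPS4B (-0.71), PPARA (-0.60), SFPQ (-0.58), PFKFB4 (-0.44), PIK3C3 (-0.40), HIF1A (-0.33), MYC (-0.32), ATP6V1C1 (-0.31), UBTF (-0.29), PIK3R4 (-0.28) and MAX (-0.28). CHAC1, PPARA, HIF1A and PIK3R4 were not called at 12 h and were called lower at 24 h, with log2 differences of -2.01, -0.54, -0.41 and -0.36.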

How the results depend on the processing

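The main count at 12 h was 385 genes, 121 higher and 264 lower. It was 178 without a filter (58 higher, 120 lower), 185 with quantile normalization (95 lower), 247 without a variance trend (144 lower), 2135 with array quality weights (732 higher, 1403 lower), 1561 with only the 6 libraries at 12 h (485 higher, 1076 lower) and 816 with only the 12 DMSO libraries (245 higher, 571 lower). Leaving out 1 replicate gave 18 to 238 genes, 2 to 72 higher and 16 to 166 lower. A stricter filter gave 448, equal library medians 505 and voom on recovered counts 478. With the replicate block 341 genes were called. Same-numbered libraries deviated with correlations from -0.076 to -0.04, so no shared deviation by number was seen. With 3 libraries per group this cannot show whether they were handled as pairs. The interaction called 3617 genes with array quality weights instead of 2071, and 1276 to 1727 with 1 replicate left out. Of 1584 values of named genes under an alternative, 295 lost a call and 70 gained one. The direction of a gene that was not called is uncertain. CHAC1 had a limma adjusted p = 0.9737 without empty vector replicate 3 at 12 h. Of 784 list medians 30 moved beyond the spread. The share of the 10 genes with most reads was 0.0841 percentage points higher with methionase, from -0.0174 (without empty vector replicate 3) to 0.138 with 1 replicate left out. Depth limits the genes with few reads: 17755 of 37096 passed the filter.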

Other observations

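Among the genes that fell at 12 h were several of nuclear RNA processing and of the transcription machinery, picked after their values were seen and so described without a test. SRSF3, a splicing factor, had 10586, 9755 and 10958 normalised reads with methionase and 13042, 13353 and 15053 with the empty vector (log2 difference -0.40 ± 0.09). RBM14, a paraspeckle protein, had a log2 difference of -0.47 ± 0.08 at 12 h and -0.70 at 24 h. Other genes that share their symbols did not all fall. Of 37 tested genes with the RBM symbol, 4 fell, 2 rose and 25 lay below 0. Of 14 tested with the SRSF symbol, 2 fell, none rose and 9 lay below 0. The medians at 12 h were -0.09 for RBM and -0.10 for SRSF, and at 24 h -0.02 and 0.08. Of 30 tested genes of the Mediator complex that carry the MED symbol, 3 fell (MED17, MED20 and MED29), none rose and 24 lay below 0, with a median of -0.12. Over all genes 1.49% fell, 0.681% rose and 51.4% lay below 0. INTS5, of the Integrator complex, fell by 0.36 ± 0.09 at 12 h and gave -1.27 at 24 h.

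Of 18 tested ADAMTS protease genes, 2 rose and 16 lay above 0, with a median of 0.14. Over all genes 0.681% rose and 8626 of 17755 lay above 0. The family was also picked after its values were seen. HEY2, a Notch target (0.36 ± 0.08), and EPHA2, an ephrin receptor (0.40 ± 0.10), rose too, while SPRY1, a feedback inhibitor of growth factor signalling, fell by 0.48 ± 0.12 at 12 h and was not called at 24 h (-0.11, adjusted p = 0.4773). Without empty vector replicate 1 the difference of SPRY1 at 12 h was -0.33 and was not called (adjusted p = 0.1418). SPRY1, MED17, MED29 and INTS5 were not called after quantile normalization.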
